A study of Mus musculus with 32 samples.

Results

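The data compared how transcripts were divided between heavy and light polysomes in mouse NIH3T3 fibroblasts and in 4E cells, which ectopically overexpress the translation initiation factor eIF4E. All 32 columns of the series entered the comparison. They were averaged into 16 samples, and 15169 of the 15247 cDNA clones on the array had a value in all 16 and were tested. For each clone the heavy minus light difference in NIH3T3 cells was subtracted from that in 4E cells, each averaged over both serum states, and the result is called the cell line by fraction term. The 8 groups combined the 2 cell lines, the 2 fractions and the 2 serum states, with 2 averaged samples in each. Basal cells grew in complete medium, and serum stressed cells had been without serum for 16 h, a time that the design text places before cytochrome c release. Gradient fractions 4 to 6 were pooled as light polysomes and 7 to 10 as heavy polysomes, described as holding below and above 1 ribosome per transcript. A common reference was on all arrays: unfractionated NIH3T3 poly(A) RNA from full medium. The sources used here do not name the construct that carries eIF4E in the 4E cells, nor say whether these cells are 1 clone or a pool. Nothing in the labels ties the samples of a group to different cultures, so the spread behind each p-value may be technical.

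eIF4E binds the cap at the start of an mRNA and brings it to the scaffold eIF4G and the helicase eIF4A, which open the leader for the small ribosomal subunit. It is held back by the 4E-binding proteins, which release it when growth signals reach the mTOR pathway, and withdrawal of serum lowers those signals. In textbook accounts mRNAs do not depend on eIF4E equally: those with long, structured leaders, among them many for growth and survival proteins, gain ribosomes most when eIF4E is raised. An mRNA that gains ribosomes sediments further and can pass from the light to the heavy pool. The cell line by fraction term measures only that shift, and a gain of ribosomes within a pool does not enter it.

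Values are log ratios against the common reference and were taken as log2 units. Neither the log base nor the direction of the ratio is stated in the labels or the file, so a positive value means higher on the deposited scale and not more RNA. Centring set the median of every sample to 0, and a move shared by most transcripts is therefore not visible in these values. The medians already lay within 0.052 of 0 before centring, so the deposited values do not show such a move either. Their normalization is not given. Clones are known here by ID only: 0 IDs matched the RefSeq gene table for mouse (assembly GRCm38.p6), so eIF4E itself, fibroblast markers and the known eIF4E targets could not be examined and no sequence is shown. The median spread (median absolute deviation) of a sample over clones was 0.47 to 0.74, the widest being the 2nd heavy sample of serum stressed 4E cells, and the next 0.68. Between the samples of a group, the residual SD had a median of 0.39.

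The samples fell into 2 sides that bear on every value below. The 2 control rows of the table held values in the 8 samples of basal NIH3T3 and serum stressed 4E cells and were empty in the 8 samples of serum stressed NIH3T3 and basal 4E cells. The term within 1 serum state takes its 4E and its NIH3T3 samples from different sides. The term pooled over serum is balanced over the sides and equals the mean of the terms computed within each side.

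Clone IDs read as a plate number from 1 to 159 followed by 1 of 96 wells, in 8 rows and 12 columns. For 151 plates, the wells of a plate on the side with control values (mean of its 8 samples) correlated best with the wells of the plate of the same number on the other side, with r of 0.39 to 0.92 (median 0.78). For the 8 plates 105 to 112 that correlation was -0.17 to 0.19 (median 0.08). Each of these 8 plates correlated best with the plate 4 numbers away, 105 with 109, 106 with 110, 107 with 111 and 108 with 112, and the reverse, with r of 0.44 to 0.91 (median 0.75). The heavy minus light differences behaved likewise, with a median r of 0.02 at the same number, 0.61 at the number 4 away and 0.63 over the other 151 plates. Within a side, the 1st and 2nd samples of these plates correlated at r of 0.58 to 0.91. For the 763 clones of plates 105 to 112 the values of the 2 sides thus matched at different IDs, and which side has the right IDs cannot be told apart. A term that crosses the sides, or averages over them, joins for these clones values that did not match. Correlations are across wells, which share the arrays and are not independent replicates. Some of the results below are also given without these clones. Unless said otherwise, counts include them.

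**Figure D1:**
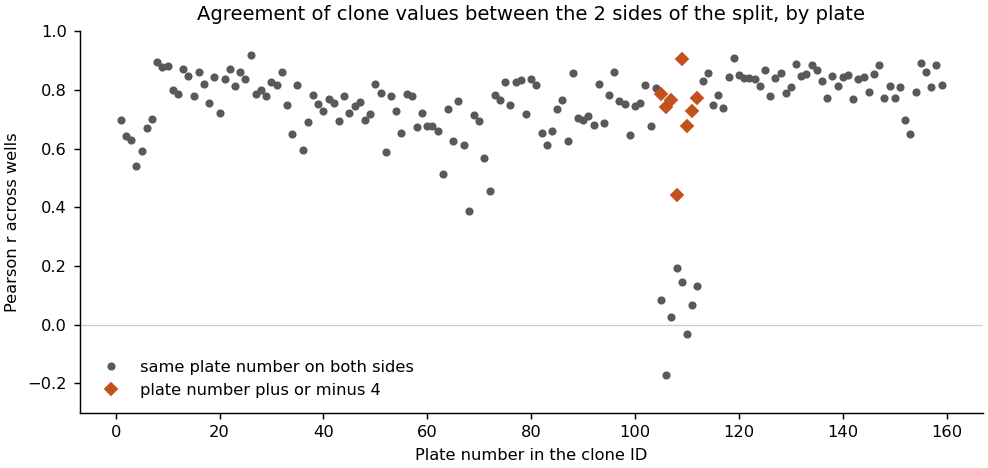
Pearson correlation across wells (vertical axis) between the mean values of a plate on the 2 sides of the split, against the plate number (horizontal axis). Grey points compare the same plate number on both sides, and orange diamonds compare plates 105 to 112 with the number 4 away. The 8 grey points of plates 105 to 112 lie at or below 0.19 and all other grey points at or above 0.39, while the diamonds reach 0.44 to 0.91.

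The division of transcripts between the fractions was alike in order in the 2 cell lines. The heavy minus light difference, averaged over serum, passed an adjusted p of 0.05 (limma, Benjamini-Hochberg) at 1001 clones in 4E cells (6.6% of those tested). Of these 532 were positive (3.51%) and 469 negative (3.09%). In NIH3T3 cells 1067 passed (7.03%), 629 positive (4.15%) and 438 negative (2.89%). There were 626 that passed in both lines, 62.5% of the 4E calls and 58.7% of the NIH3T3 calls, and all 626 had the same sign. Across the 15169 clones the differences of the 2 lines, which share no polysome sample, correlated at r = 0.71 (Spearman 0.61), and at 0.71 without plates 105 to 112. Their spread was also close, with a median absolute deviation of 0.46 in 4E and 0.44 in NIH3T3 cells. The least squares slope was 0.71 for 4E on NIH3T3 and 0.70 for NIH3T3 on 4E. With 1 sample left out, the 4E count was 359 (without the 1st light basal sample) to 1277 and the NIH3T3 count 305 (without the 2nd light basal sample) to 1192. Counts below the full one by over 1.5 times also followed for 4E without the 2nd light basal sample (665), either heavy basal sample (479 and 524), either light serum stressed sample (577 and 386) and the 2nd heavy serum stressed sample (536). For NIH3T3 they followed without the 2nd heavy basal (470), the 2nd light serum stressed (432) and either heavy serum stressed sample (638 and 601).

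**Figure D2:**
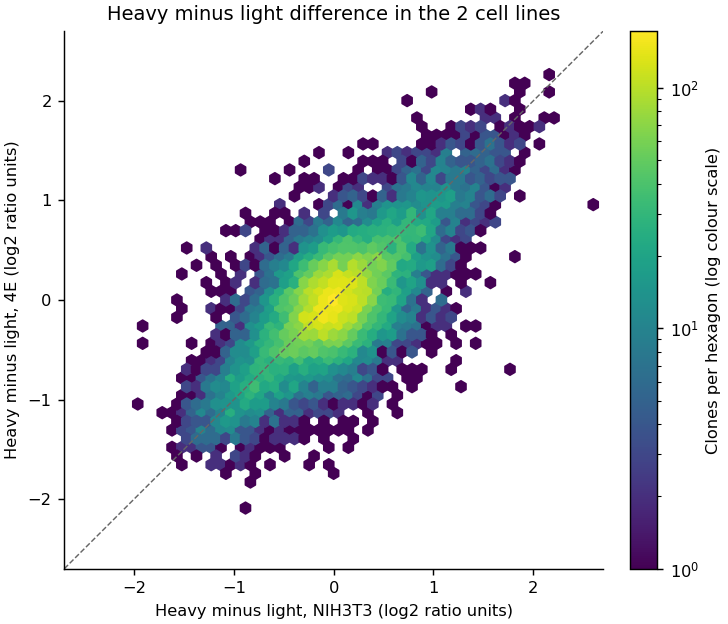
Heavy minus light difference of each clone in NIH3T3 (horizontal axis) and 4E cells (vertical axis), in log2 ratio units, averaged over serum; colour gives the number of clones per hexagon on a log scale and the dashed line marks equal differences. The cloud of 15169 clones lies along the dashed line (r = 0.71).

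Clone H3059E05 is an example of a clone placed alike in both lines, and it does not stand for the others. It and H3155C02 had the largest positive and the largest negative heavy minus light difference over all 16 samples, and both were chosen after their values were seen. In NIH3T3 cells its light samples stood at -0.41 and -1.49 (basal) and -0.91 and -1.04 (serum stressed), and its heavy samples at 0.99, 1.03, 1.29 and 1.35 in the same order. In 4E cells the light samples stood at -1.54, -1.46, -0.85 and -1.0 and the heavy samples at 0.69, 0.44, 1.13 and 1.95. Heavy lay above light in every state with no overlap. The difference was 2.27 in 4E and 2.13 in NIH3T3 cells (SE 0.26 each), and the term was 0.14 (SE 0.37, adjusted p = 0.998 by limma). Clone H3155C02 ran the other way, with a heavy minus light difference of -1.61 in 4E and -1.52 in NIH3T3 cells (SE 0.33 each) and a term of -0.10 (SE 0.46).

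No clone passed the adjusted test for the cell line by fraction term pooled over serum (0 of 15169, 0%, limma with Benjamini-Hochberg adjustment; smallest adjusted p 0.998). At an unadjusted p under 0.05 there were 388 clones (2.56%), 189 positive (1.25%) and 199 negative (1.31%). With 1 sample left out that count was 333 to 819 (2.20% to 5.4%), with 819 without the 1st heavy serum stressed 4E sample and 647 without the 2nd light serum stressed NIH3T3 sample. The mean square of the term over all clones was 0.74 times that between replicate samples. For heavy minus light it was 2.53 times in 4E and 2.49 times in NIH3T3 cells. Clones that varied only as replicates do would give about 5% at that unadjusted p and a ratio near 1. The 2.56% and 0.74 of the term lie below these, so its test may be too strict and its intervals too wide. The reason was not tested. The term had a median of -0.03, and 90 in 100 clones lay between -0.69 and 0.62.

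The bounds below say how large a shift the data leave room for, with the spread between samples of a group taken as the error. The 95% interval of the term, without adjustment for the number of clones, had a median half-width of 0.84. It lay wholly within 2 log2 units of 0 at 14405 clones (95%) and within 1 unit at 5050 (33.3%). At the other clones the interval reached 1 unit or more in at least 1 direction, a doubling or halving of the ratio of heavy to light between the lines if the values are log2. Leaving out 1 sample gave 0 to 3 clones past the adjusted threshold. There were 3 without the 2nd heavy basal NIH3T3 sample, 2 without the 1st heavy basal 4E sample, and 1 each without the 1st light serum stressed NIH3T3, the 2nd heavy serum stressed NIH3T3 or the 2nd heavy serum stressed 4E sample.

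Pooled over serum, the term also had a median near 0 among clones that the fractions separate in the average of both lines. Its median absolute deviation was 0.32 at the positive and 0.30 at the negative calls, against 0.37 over all clones. Placement by the heavy minus light difference over all 16 samples is balanced over the cell lines, and its correlation with the term across clones was 0.01. Clones whose differences cancel between the lines do not pass for that average, so the shares of these calls do not cover them. Of the 15169 clones 2743 passed for that difference (18.1%, limma with Benjamini-Hochberg adjustment). The 1411 clones with a positive call (9.3%) had a median difference of 0.87 in 4E and 0.93 in NIH3T3 cells, and their term had a median of -0.05. The 1332 with a negative call (8.78%) had -0.89 and -0.86, and a term of -0.04, against -0.03 over all clones. Within the serum states the medians moved apart. For the positive calls the term was -0.13 in basal and 0.01 in serum stressed cells. For the negative calls it was 0.11 and -0.15, and over all clones 0.01 and -0.04. For the pooled term, 34 of the positive calls (2.41%) and 19 of the negative calls (1.43%) reached an unadjusted p under 0.05 (limma). The share over all clones was 2.56%. Clones that passed for heavy minus light in at least 1 line numbered 1442. Of these, 23 had opposite signs in the 2 lines and 87 (6.03%) an unadjusted p under 0.05 for the term; passing in 1 line helps to make such a difference, so this share is no evidence apart from it.

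The clones nearest to a shift are given as values, since none passed. Clone H3089A10 came nearest on the positive side. Its NIH3T3 samples stood at 0.80 and 0.64 (light basal), -0.49 and -0.78 (heavy basal), 0.63 and 0.30 (light serum stressed) and -0.59 and -0.86 (heavy serum stressed). Its 4E samples stood at 2.09 and 2.84, 2.37 and 2.80, 2.96 and 2.19, and 2.90 and 4.08 in the same order. In NIH3T3 cells heavy lay below light in both serum states without overlap, while in 4E cells the fractions overlapped in basal and in serum stressed samples, and all 8 samples of 4E lay above all 8 of NIH3T3. The heavy minus light difference was -1.27 in NIH3T3 (SE 0.29, adjusted p = 0.019) and 0.51 in 4E cells (SE 0.29, adjusted p = 0.36), a term of 1.79 (SE 0.42, adjusted p = 0.998). It was positive in both serum states, 1.47 in basal and 2.10 in serum stressed cells (SE 0.59 each), and on both sides of the split, 2.26 and 1.31.

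Clone H3097C10 also had heavy below light in NIH3T3 cells only. There the light samples stood at 0.38, 0.38, 0.49 and 0.39 and the heavy samples at -0.17, -0.23, -0.34 and -0.20 (basal, then serum stressed). In 4E cells the light samples stood at -0.02, -0.18, 0.40 and 0.13 and the heavy samples at 0.54, 0.86, 0.65 and 0.33. The fractions did not overlap in NIH3T3 or in basal 4E cells and overlapped in serum stressed 4E cells. The term was 1.15 (SE 0.29, adjusted p = 0.998), and the residual SD of this clone, 0.15, was lower than that of all but 0.475% of the clones. Its higher and lower columns differed by up to 0.85 in a sample, which is more than that SD.

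On the negative side, clone H3009C04 owed its term to 1 group. The 2 heavy samples of serum stressed 4E cells stood at -2.99 and -3.47, and the other 14 samples between -0.39 and 1.26. The term was -1.80 pooled over serum (SE 0.37, adjusted p = 0.998), 0.09 in basal cells (SE 0.53) and -3.69 in serum stressed cells (SE 0.53, adjusted p = 0.080). Over all alternatives the last ran from -4.14 to -3.19. Its adjusted p (limma) was 0.033 under quantile normalization, 0.045 with centring within wells and 0.41 with scaling to 1 median absolute deviation. It was 0.021 with all 32 columns counted as replicates, which takes the higher and lower value of a sample for separate samples. The columns averaged for the 2 low samples lay 5.57 and 2.63 apart. Those of the highest sample, the 1st heavy serum stressed NIH3T3 sample at 1.26, lay 3.72 apart. These compare with a median gap of 0.17 to 0.24 in the 16 samples over clones with unequal columns. Clone H3042E07 likewise rested on 1 group: the heavy basal NIH3T3 samples stood at 1.74 and 1.57 and the other 14 between -0.10 and 0.45. Its term was -1.14 (SE 0.30, adjusted p = 0.998), -1.80 in basal (SE 0.42) and -0.48 in serum stressed cells (SE 0.42).

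**Figure D3:**
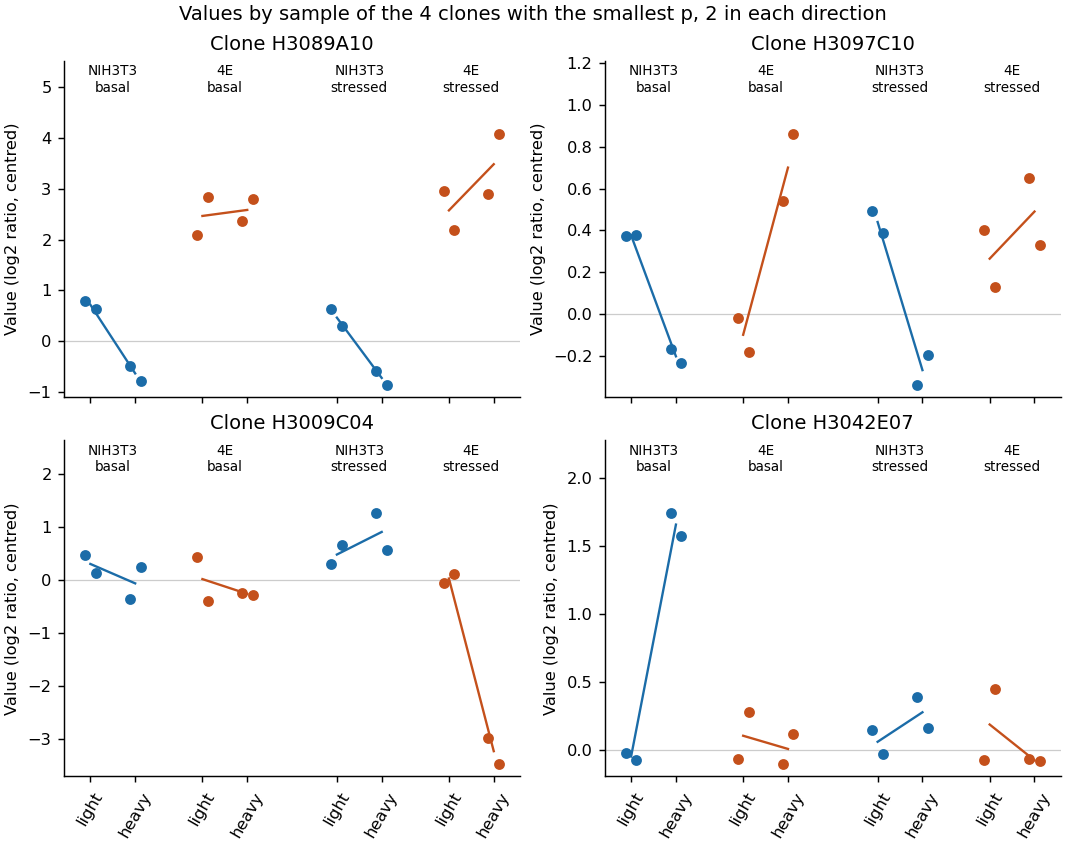
Centred log2 ratios (vertical axis) of the 2 clones of smallest p in each direction, by fraction, cell line and serum state; points are the 2 samples of a group and lines join the group means, blue for NIH3T3 and orange for 4E. In H3089A10 and H3097C10 the NIH3T3 lines slope down and the 4E lines up in both serum states, whereas in H3009C04 and H3042E07 a single group stands away from the other 14 samples.

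The term was next taken in each serum state. The difference between the states is also the heavy minus light differences of the side with control values less those of the other side. In that difference, and in the signs of the 2 states set against each other, serum and side therefore cannot be told apart. No clone passed in basal cells (0 of 15169; 621 or 4.09% at an unadjusted p under 0.05, smallest adjusted p 0.857) or in serum stressed cells (0; 669 or 4.41%, smallest adjusted p 0.080, limma). None passed for the difference between the states either (0; 841 or 5.54%, smallest adjusted p 0.160, at H3110C07 in plate 110). Without plates 105 to 112 the smallest adjusted p for that difference was 0.408 by limma, and 0.427 with each exchanged, on the side without control values, for the plate it matched. With 1 sample left out the counts reached 29 in basal cells (without the 2nd heavy basal NIH3T3 sample) and 10 in serum stressed cells (without the 2nd heavy serum stressed NIH3T3 sample). Without the 1st heavy serum stressed 4E sample the unadjusted count became 1439 (9.49%) in serum stressed cells and 1414 (9.32%) for the difference between the states; for the basal term it was 519 to 753 with 1 sample left out. The 2 states share no sample, and across clones their terms correlated at r = -0.18 (Spearman -0.15). Over all 15169 clones 45.2% had the same sign in both states. An unadjusted p under 0.05 in both states was reached by 91 of them, 83 with opposite signs and 8 with the same sign. Shares of 4.09% and 4.41% would place some clones in both states without any link. The opposite signs were not spread evenly over the array. In plates 105 to 112 the terms of the 2 states correlated at r = -0.52 over 763 clones, and in the other plates at -0.14 over 14406. Outside plates 105 to 112, 49 of the 14406 clones had an unadjusted p under 0.05 in both states, 8 with the same sign and the rest with opposite signs. With the plates exchanged as above, the terms of the 2 states correlated at r = -0.16 within plates 105 to 112, over 758 clones.

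**Figure D4:**
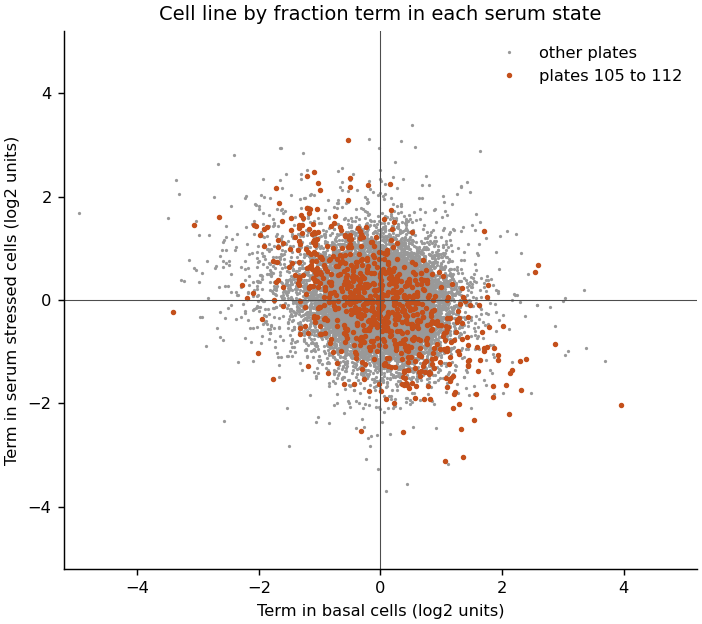
Cell line by fraction term of each clone in basal (horizontal axis) and serum stressed cells (vertical axis), in log2 units; orange points are the 763 clones of plates 105 to 112 and grey points the other 14406. The orange points stretch from upper left to lower right (r = -0.52), more than the grey ones (r = -0.14).

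Within plates 105 to 112 the share of clones at an unadjusted p under 0.05 was 14.7% in basal and 16.3% in serum stressed cells, against 3.53% and 3.78% in the other plates. For the difference between the states it was 23.9% against 4.57%. For the pooled term it was 2.75% against 2.55%, and within the sides 2.75% and 2.36% against 2.92% and 2.76%, so the pooled and within-side shares were close to those of the other plates. When the values of plates 105 to 108 and 109 to 112 were exchanged on the side without control values, the shares in these plates became 4.09% (basal), 4.88% (serum stressed) and 4.49% (difference between the states), over the 758 clones measured at both numbers.

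Clone H3110C07 lies in plate 110 and had the smallest p of all positive terms in basal cells. Its heavy minus light difference was -0.99 in basal NIH3T3, 1.13 in basal 4E, 0.98 in serum stressed NIH3T3 and -1.23 in serum stressed 4E cells. The sign therefore followed the side of the split and neither the cell line nor serum. The clone of the same well in plate 106, H3106C07 (chosen after its values were seen), gave 0.98, -1.07, -0.49 and 0.94 in the same order, the reverse of each sign. The term of H3110C07 was 2.12 in basal (SE 0.47) and -2.21 in serum stressed cells (SE 0.47), and -0.083 and -0.75 (SE 0.53 each) after the exchange. Pooled over serum it was -0.05.

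Outside these plates, clones H3048E03, H3076B11 and H3118D01 had the smallest p in basal cells. H3048E03 had a term of 1.94 (SE 0.43, adjusted p = 1.00). Its heavy basal 4E samples, 1.88 and 2.0, stood above the other 14, which lay between 0.09 and 1.27. H3076B11 had a term of -3.23 (SE 0.58, adjusted p = 0.857 by limma). Its heavy basal NIH3T3 samples stood at 4.03 and 2.68 and the other 14 between -0.55 and 0.41. In both heavy basal NIH3T3 samples the averaged columns were equal, as they were at 8.53% to 23.8% of the clones in the 16 samples. Without the 2nd of these heavy samples, which leaves the higher value alone in its group, its term was -3.90. H3118D01 had -2.48 (SE 0.57), with opposite differences in the 2 lines, 1.55 in basal NIH3T3 and -0.93 in basal 4E cells. In serum stressed cells the terms of these 3 clones were 0.13, 0.37 and 0.75, with intervals that include 0.

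In serum stressed cells the clones of smallest p were H3142G10 and H3108B01 with a positive term and H3009C04 and H3111B07 with a negative one. In H3142G10 the heavy 4E samples stood at 1.48 and 1.57 and the light ones at -0.34 and -0.55, while the NIH3T3 samples stood at -0.63 and -0.53 (heavy) and -0.58 and -0.57 (light). The term was 1.97 (SE 0.42, adjusted p = 0.983), and 0.17 in basal cells (SE 0.42). H3108B01 and H3111B07 lie in plates 108 and 111. Their terms of 2.13 (SE 0.49) and -3.03 (SE 0.61) became 1.05 (SE 0.48) and -1.10 (SE 0.54) after the exchange.

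Within each side of the split, where no plate is compared across sides, the term passed at no clone. Between serum stressed 4E and basal NIH3T3 cells there were 0 clones (441 or 2.91% at an unadjusted p under 0.05, smallest adjusted p 0.806, limma), and between basal 4E and serum stressed NIH3T3 cells 0 (416 or 2.74%, smallest adjusted p 1.00). In these comparisons cell line and serum change together. Leaving out 1 sample gave up to 28 clones on the first side (without the 2nd heavy basal NIH3T3 sample) and up to 10 on the second (without the 1st heavy basal 4E sample). The unadjusted count rose to 1138 (7.5%) on the first side without the 1st heavy serum stressed 4E sample, and to 831 (5.48%) on the second without the 2nd light serum stressed NIH3T3 sample. Across clones the terms of the 2 sides, which share no sample, correlated at r = -0.01 (Spearman -0.00), and 50.3% of the clones had the same sign in both. Among the 15169 clones, 11 had an unadjusted p under 0.05 on both sides, 9 with the same sign and 2 with opposite signs. Shares of 2.91% and 2.74% would place some clones on both sides without any link, and whether 11 differs from that was not tested.

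The term also followed the position of a clone in its plate. The mean over wells in the same place of all 159 plates accounted for 6.6% of the sum of squares of the pooled term, for 4.92% in basal and for 7.23% in serum stressed cells, with 0.626% of the degrees of freedom. For heavy minus light over all states the share was 1.35%. In the pooled term, wells in rows A, C, E and G had a median of 0.03 and those in rows B, D, F and H of -0.08. The 388 clones at an unadjusted p under 0.05 followed the rows: 138 positive and 58 negative in the first set, 51 positive and 141 negative in the second. In basal cells the rows alternated most clearly, with medians of 0.12 and -0.11. In serum stressed cells the row sets were equal (-0.04 and -0.04) and the columns differed instead, from -0.23 in column 2 to 0.23 in column 12. The medians of single wells ran from -0.23 to 0.18 in the pooled term. These offsets are smaller than the median half-width of 0.84 at a single clone. When each sample was also centred on its median at each well, 0 clones passed for the pooled term and 355 reached an unadjusted p under 0.05.

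**Figure D5:**
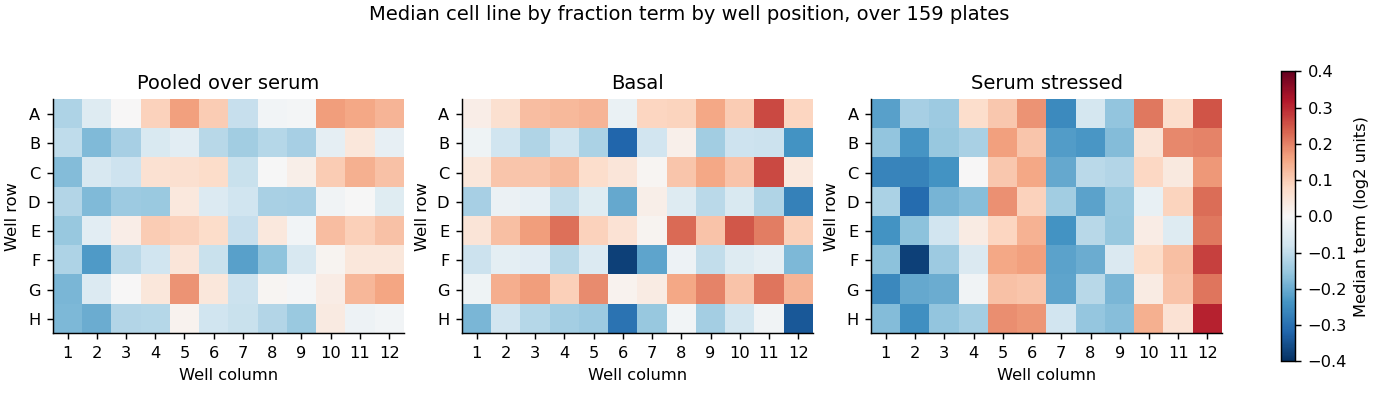
Median cell line by fraction term, in log2 units (colour), of the clones at each of the 96 well positions, in 8 rows and 12 columns, for the pooled, basal and serum stressed terms. Rows alternate in sign in the basal panel (medians of 0.12 and -0.11 for the 2 row sets), and columns differ in the serum stressed panel (from -0.23 in column 2 to 0.23 in column 12).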

How the data were processed

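The authors deposited log ratios of each polysome sample against the common reference from 2-colour arrays, per the labels, taken here as log2. A natural log is not excluded. No source used here gives the direction, background correction, normalization or spot filters. Columns were averaged in pairs (title numbers 1 with 2, and 3 with 4), because in all 16 pairs 1 column was never below the other (tolerance 1e-06), which leaves 16 samples. Clones with a missing value were left out (78), and each sample was centred on its median, a shift of at most 0.052. The term was tested with limma 3.58.1 under R 4.3.3, in 1 fit of 8 group means with 8 residual and 6.51 prior degrees of freedom, and Benjamini-Hochberg adjustment over clones at 0.05. The fit was tested on simulated data with independent normal noise and no side, plate or well pattern. That does not show how well its p-values hold for the data here. Named clones are the 2 of smallest p in each direction for the pooled, basal and serum stressed terms, as none passed. Gene and marker lists could not be run without gene names. The members, lists and tests were chosen with earlier results of these data known. The number of arrays limits the precision. Alternatives are in the closing section; those on plates and wells were added after the data were seen.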

Additional observations from a re-analysis of the deposited data

How the results depend on the processing

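For the pooled term the count past the adjusted threshold stayed at 0 under quantile normalization, scaling to 1 median absolute deviation, no centring, the higher or the lower column alone, array weights, robust and trended moderation, a factorial model with 6 coefficients, the 3018 clones whose columns differed in each sample, and the 4 settings on plates and wells. A fit of only the groups compared is the same fit. The sample number as a replicate block also gave 0 for all terms, with 830 (4E) and 861 (NIH3T3) clones for heavy minus light. The numbers are no pairing by the data: deviations of samples with the same number correlated at -0.33 to 0.36, above 0.1 in 9 of 28 pairs of groups. Counting all 32 columns as replicates, which takes the higher and lower value of a sample for separate samples, gave 245 clones for the pooled term, 607 (basal), 714 (serum stressed), 258 and 320 (within the sides) and 1018 (difference between the states). It gave 4886 (4E), 4715 (NIH3T3) and 6107 (average) for heavy minus light. H3009C04 alone passed in serum stressed cells under quantile normalization (1 clone) and with centring within wells (1 clone). The basal term of H3110C07 turned to -0.083 with plates exchanged, where the values come from another spot. Leaving out 1 sample gave 0 to 3 clones (pooled), 0 to 29 (basal), 0 to 10 (serum stressed), 0 to 28 and 0 to 10 (within the sides), 0 to 5 (difference between the states), and 359 to 1277 (4E), 305 to 1192 (NIH3T3) and 2197 to 2974 (average) for heavy minus light. The 29 and 28 came without the 2nd heavy basal NIH3T3 sample, as did the 3 of the pooled term, clones H3081H06, H3107E07 and H3110E05, of which the last 2 lie in plates 107 and 110. Causes were not tested. With a group left at 1 sample, that sample is assumed to vary like the others.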

Other observations

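The match of plates 105 to 108 with plates 109 to 112 across the sides bears on comparisons that the report does not make. The cell line by serum term, averaged over fraction, lies along the split. It passed an adjusted p of 0.05 (limma) at 710 of 15169 clones, and 157 of these lay in plates 105 to 112, 20.6% of the clones there against 3.84% elsewhere. Without these plates 444 of 14406 clones passed, and with the plates exchanged on the side without control values 459 of 15164, 2.51% in these plates against 3.05% elsewhere. This contrast was added after the data were seen.

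The columns of a sample also differed at the control rows. In the 8 samples with values, the columns of the buffer spots (3XSSC) lay 1.91 to 5.30 apart and those of the Arabidopsis spots 1.88 to 6.10. The means of the columns were -0.07 to 1.25 for the buffer and -0.31 to 2.34 for Arabidopsis.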
